A study of Caenorhabditis elegans with 2 samples.

Results

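The insulin-like peptide genes of Caenorhabditis elegans were examined for nearby binding of the transcription factor JUN-1, mapped by ChIP-seq, in which DNA bound by the tagged factor is precipitated and sequenced. The family was defined by name, as every protein-coding gene of the Ensembl annotation of build WBcel235 whose symbol is ins- followed by a number, together with daf-28. This gave 39 of the 19973 protein-coding genes on the nuclear chromosomes, namely ins-1 to ins-37, ins-39 and daf-28. The animals were whole L3 larvae, with both sexes pooled, of strain OP234, which carries unc-119(ed3) III and the transgene wgIs234 that supplies eGFP-tagged JUN-1. There were 2 biological replicates of this 1 group, so no conditions could be compared and no p-values are given. Both replicates carry the transgene and the unc-119 allele, and whole larvae mix all tissues, so a region cannot be traced to a cell type. Control libraries were not analysed here.

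Insulin-like peptides are small secreted proteins that act as hormones on DAF-2, the insulin and IGF receptor of the worm. Some activate the receptor and favour growth and reproduction, while others oppose it and favour dauer entry, an arrested larval state that forms in place of the usual L3 larva. Signalling from DAF-2 through the AGE-1 and AKT kinases keeps the FOXO factor DAF-16 out of the nucleus. JUN-1 is a basic leucine zipper protein of the AP-1 class, which binds DNA as a pair of subunits.

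Each gene was scored by its strongest listed region, meaning the region of highest deposited signal value whose summit lay from 1000 bp upstream to 500 bp downstream of a 5′ end of one of its coding transcripts, called here the promoter window. The signal value is the score the authors' peak calling gave each region, on a scale that the sources used here do not state. It is used to rank and describe regions within a list. A ratio between the replicate lists is given only beside the median ratio over coding genes. The authors' lists on build ce11 were 2738 peaks that passed the irreproducible discovery rate (IDR) procedure, 20820 regions of the pooled replicates, 27417 regions of replicate 1 and 28475 of replicate 2. The IDR peaks carry pooled signal values of at least 31.4, and the pooled list runs down to 8.67 with a median of 12.9. Pooled regions at or above the lowest IDR value also number 2738, so an IDR peak is not evidence separate from a high pooled signal. The median signal value was 5.59 for replicate 1 and 6.96 for replicate 2. Read depth is not given in the sources used here, and a gene without a listed region is therefore a gene without a detected region at this unknown depth.

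The sequences under the 3 highest-scoring members and under the strongest of the 3 peaks past the 3′ end of ins-13 are shown first, because the results below turn on them. They are from RefSeq, build WBcel235, plus strand, 5′ to 3′. The ins-39 peak is at chrX:1344902-1345156 and is given whole. The others cover 125 bp on each side of the summit, at chrV:20374544-20374794 for ins-35, chrIV:9682595-9682845 for ins-7 and chrII:5543449-5543699 for the peak past the 3′ end of ins-13. In the first 3 sequences capitals mark matches to 6 motifs searched on both strands. The AP-1 motif TGACTCA is the usual site of JUN and FOS pairs. The CRE, TGACGTCA, is a palindrome bound by CREB-type factors and some AP-1 pairs. Factors of the GATA family were represented by TGATAA, an element of many intestinal promoters. The E-box CACGTG is a site of basic helix-loop-helix factors, and the GAGA repeat was searched as GAGAGAGA. For FOXO factors such as DAF-16 the letters GTAAACA were used. In the last, capitals mark the annotated bases of the small nuclear RNA gene sls-2.2.
ins-39 peak: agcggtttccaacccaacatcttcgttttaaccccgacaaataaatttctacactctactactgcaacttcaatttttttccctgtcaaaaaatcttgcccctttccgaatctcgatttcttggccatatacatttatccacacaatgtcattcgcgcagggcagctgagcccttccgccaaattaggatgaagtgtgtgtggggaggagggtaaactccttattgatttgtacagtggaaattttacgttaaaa
ins-35 peak: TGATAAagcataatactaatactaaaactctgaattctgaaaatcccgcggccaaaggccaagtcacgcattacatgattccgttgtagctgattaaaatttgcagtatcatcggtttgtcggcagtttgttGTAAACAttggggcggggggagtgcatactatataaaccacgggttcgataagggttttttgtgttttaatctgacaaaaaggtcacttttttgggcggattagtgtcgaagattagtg
ins-7 region: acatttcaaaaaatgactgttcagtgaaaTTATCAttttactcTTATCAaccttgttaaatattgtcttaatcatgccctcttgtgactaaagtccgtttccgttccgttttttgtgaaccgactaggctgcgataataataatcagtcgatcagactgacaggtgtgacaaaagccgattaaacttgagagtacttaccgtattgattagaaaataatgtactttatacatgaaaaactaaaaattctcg
peak past ins-13: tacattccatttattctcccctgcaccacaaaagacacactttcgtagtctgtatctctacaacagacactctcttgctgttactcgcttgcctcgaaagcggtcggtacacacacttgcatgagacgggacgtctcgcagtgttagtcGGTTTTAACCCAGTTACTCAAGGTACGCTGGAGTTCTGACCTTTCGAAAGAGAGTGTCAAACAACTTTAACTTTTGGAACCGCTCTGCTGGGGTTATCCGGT

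Few insulin-like genes had an IDR peak in the promoter window, but 1 of them, ins-39, was among the strongest promoter sites of the experiment. IDR peaks marked 2 of 39 members (5.13%), ins-39 and ins-35, against 9.5% of all protein-coding genes. A pooled region was listed for 11 members (28.2%), against 39.2% of all protein-coding genes. The list of replicate 1 gave 18 members (46.2%), against 45.5% of all coding genes, and that of replicate 2 gave 13 (33.3%), against 45.8%. In both replicate lists there were 9 members (23.1%), against 32.1% of all coding genes. In this window the replicate 1 share thus lay near the background, and the other shares lay below it by amounts that were not tested. Among the 11 members with a pooled region the median signal value was 13.4, against 17.1 for the 7828 coding genes with one.

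**Figure D1:**
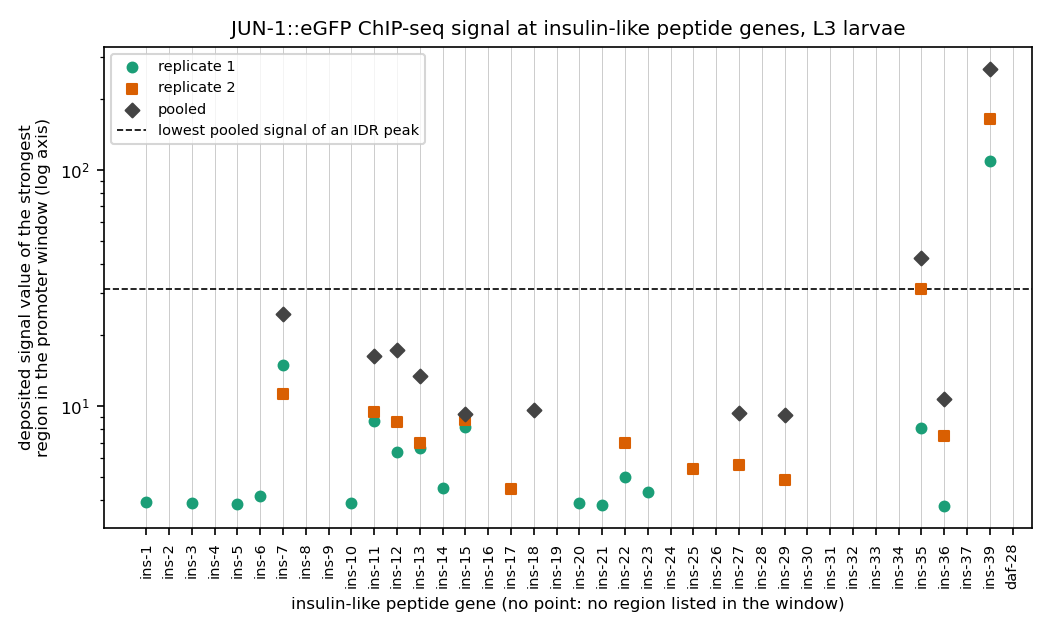
Deposited signal value (log axis) of the strongest region in the promoter window of each of the 39 insulin-like genes, for replicate 1 (circles), replicate 2 (squares) and the pooled list (diamonds). The dashed line is the lowest pooled value of an IDR peak, 31.4. The pooled values of ins-39 (267) and ins-35 (42.2) lie above it, that of ins-7 (24.6) is next below, and genes without a point had no listed region.

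The gene ins-39, at 1343758 to 1344421 of chromosome X on the minus strand, stood far above the rest of the family. Its peak had a signal value of 109 in replicate 1, 164 in replicate 2 and 267 in the pooled list. In rank it was number 27 of 27417 in replicate 1, 19 of 28475 in replicate 2 and 22 of 20820 in the pooled list. Ordered by promoter signal, ins-39 was the 11th of the 7828 coding genes with a pooled region, the 14th of 9078 in replicate 1 and the 8th of 9156 in replicate 2. Both replicates therefore placed it in the same narrow range, with summits 38 bp apart.

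The ins-39 peak was 255 bp wide, against a median of 390 bp, and its summit lay in intergenic sequence 607 bp upstream of the single annotated 5′ end. No other coding gene shared it. A second IDR peak within 10 kb lay 7189 bp from the ins-39 5′ end and 57 bp upstream of that of ttr-37, a transthyretin-like gene (17.6 in replicate 1, 20.2 in replicate 2 and 38.8 pooled). None of the 6 motifs occurred in the ins-39 peak, whose GC content was 41.6%.

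The gene ins-35, at 20375536 to 20376302 of chromosome V on the plus strand, had the second peak, and here the replicates differed. Peptides of ins-35 and ins-7 are made and secreted by intestinal cells. The ins-35 region had a signal value of 8.10 in replicate 1, 31.2 in replicate 2 and 42.2 in the pooled list. Its rank was 6953 of 27417 in replicate 1, 1156 of 28475 in replicate 2 and 1702 of 20820 in the pooled list. The ratio of replicate 2 to replicate 1 was 3.85, while the median over the 6418 coding genes with a region in both lists was 1.34, and 1.85% of those genes had a ratio as high. The ins-35 region was thus strong in replicate 2 and moderate in replicate 1, although the summits of the replicates were 4 bp apart.

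The ins-35 summit was 867 bp upstream of its 5′ end, in intergenic sequence, and no other coding gene shared the region. A GTAAACA, the core of the element bound by DAF-16, began 7 bp from the summit, as the capitals in its sequence show. The same motif lay within 50 bp of the summit in 2.52% of all IDR peaks and 1.9% of all pooled regions. A match describes letters in the window and does not show that the site is bound.

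The gene ins-7, which encodes a DAF-2 agonist whose transcription is repressed by DAF-16, came closest to the IDR peaks without reaching them. Its region had a signal value of 14.9 in replicate 1, 11.2 in replicate 2 and 24.6 pooled, against 31.4 for the weakest IDR peak. Its −log10 q was 1.91, against 3.73 for ins-39 and ins-35. That is the highest value in the pooled list, and 2677 of the 20820 pooled regions share it. ins-7 was the only member with a pooled region above 20 that was not an IDR peak. The ranks were 2492 in replicate 1, 6318 in replicate 2 and 3943 in the pooled list. Taken alone, the 2738 strongest regions of replicate 1 include ins-7 and ins-39 but not ins-35, and those of replicate 2 include ins-35 and ins-39 but not ins-7. Each replicate thus gave ins-39 and a different second gene.

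The gene ins-7 lies at 9682011 to 9682845 on the minus strand. Its summit at position 9682720 of chromosome IV lay in an intron. That position is 125 bp downstream of the nearer of 2 annotated 5′ ends and upstream of the other. The summits of the replicates were separated by 64 bp. ZK1251.3 shares the region, with its 5′ end 938 bp from the summit, htas-1 ends 264 bp from the summit, and the snRNA gene ZK1251.14 overlaps the region's edge. A pair of GATA motifs, printed in capitals as TTATCA on the plus strand, lay 82 and 96 bp from the summit. Neither is within 50 bp of it, the distance used for the shares over all regions.

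The agonists best known for controlling dauer formation had no pooled region, unlike the agonist ins-7. Only 39.2% of all coding genes had one, so its absence from a few genes says little about agonists as a class. DAF-28, INS-4 and INS-6 are neuronal peptides that activate DAF-2 and keep larvae out of dauer. daf-28 and ins-4 had no region in the promoter window in any list. ins-6 had a region in replicate 1 alone, with a value of 4.14, at the 82.2% point of that list counted from the strongest. The nearest IDR peak to daf-28 was 171891 bp away. ins-3 and ins-33, which act in germline proliferation, were alike: ins-3 had a replicate 1 region of 3.90 and ins-33 none.

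Among members known as antagonists of DAF-2, ins-1, ins-18 and ins-23 had weak regions. With 39.2% of all coding genes having a pooled region, these few genes do not describe antagonists as a class. ins-1, which acts in neurons and in learning, had a replicate 1 region of 3.92 and none in the other lists. ins-18 had a pooled region of 9.63, in an intron 478 bp downstream of its 5′ end, with no replicate summit inside the window. Its replicate 1 summit of 6.24 was 32 bp from the pooled one and fell just outside the window, and no summit of replicate 2 lay within 200 bp. ins-23 had a region of 4.30 in replicate 1 alone.

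The remaining members with a pooled region were all below 18. ins-12 had 17.3 in the pooled list, with strongest replicate values of 6.36 and 8.53, and ins-11, an intestinal peptide that modulates avoidance of pathogens, had 16.2, with 8.64 and 9.43 (replicate 1 first). ins-13 followed with 13.4 pooled, 6.66 and 6.97, ins-36 with 10.7 pooled, 3.77 and 7.49, and ins-15 with 9.26 pooled, 8.17 and 8.72. ins-27 (9.31 pooled) and ins-29 (9.11 pooled) had a region in replicate 2 only, at 5.65 and 4.87. Some of these regions have other genes close by. The ins-29 summit was 297 bp from the ins-29 5′ end and nearer to that of ZC334.13, and the ins-36 summit was 484 bp from an ins-36 5′ end and 428 bp from that of Y53H1A.7. Past the 3′ end of ins-27, the summit lay 60 bp from linc-124, a long noncoding RNA gene, and 89 bp from ZC334.12, while that of ins-15, inside the gene, was 124 bp from F41G3.6. Of these 7 genes, ins-12, ins-11 and ins-13 lay above the median of the pooled list, 12.9, and the others below it.

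Strongest regions of the replicates did not always fall at the same place. Their summits were 58 bp apart at ins-13, but 342 bp at ins-22, 510 bp at ins-15, 645 bp at ins-12, 1285 bp at ins-11 and 2653 bp at ins-36, where the regions belong to separate 5′ ends. A summit of each replicate within 200 bp of the strongest pooled summit was found at 6 members, ins-7, ins-11, ins-12, ins-13, ins-35 and ins-39. This was not counted over all coding genes, so the number does not show whether the family is unusual. Of these 6 members, ins-11 had only a value of 4.40 there in replicate 2, rank 28101 of 28475.

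Another 12 members appeared in a replicate list but not in the pooled one. Replicate 1 alone listed 9 of them, ins-1, ins-3, ins-5, ins-6, ins-10, ins-14, ins-20, ins-21 and ins-23, with values of 3.80 to 4.48, between the 72.1% and 93.2% points of that list. Replicate 2 alone listed ins-17 and ins-25, at 4.47 and 5.42, and ins-22 was in both, at 4.98 and 6.97. The promoter windows of 16 members held no region of any list, and these were ins-2, ins-4, ins-8, ins-9, ins-16, ins-19, ins-24, ins-26, ins-28, ins-30, ins-31, ins-32, ins-33, ins-34, ins-37 and daf-28. Of all coding genes, 45.5% had a region in replicate 1, 45.8% in replicate 2, 32.1% in both and 39.2% in the pooled list. Shares of all coding genes in 1 replicate list alone, outside the pooled list or in no list were not counted, so these counts only describe the members.

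**Figure D2:**
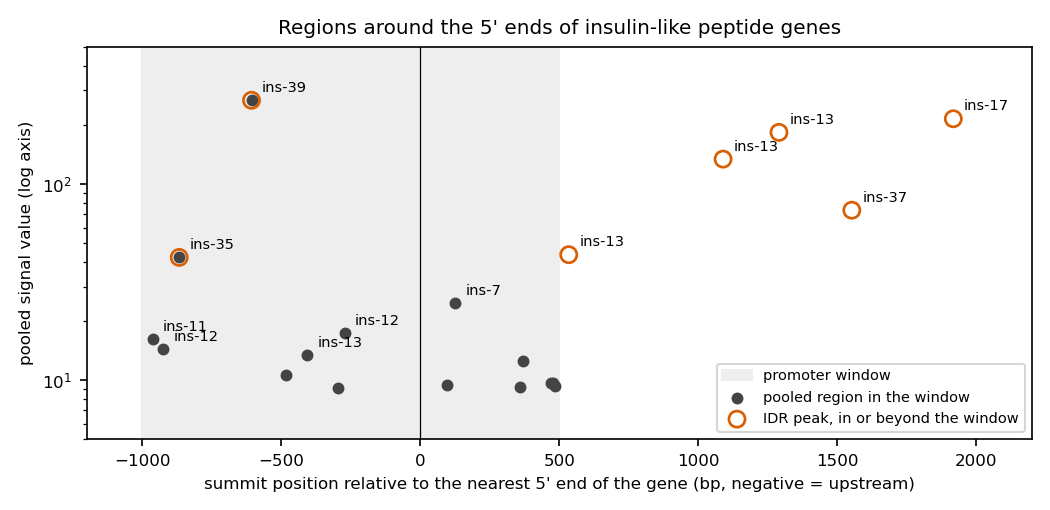
Position of region summits relative to the nearest 5′ end of each insulin-like gene (bp, negative upstream) against pooled signal value (log axis). Filled points are pooled regions in the shaded promoter window, and open circles mark IDR peaks, in or beyond the window. The peaks of ins-39 (607 bp upstream) and ins-35 (867 bp upstream) are inside the window, while those labelled ins-13, ins-17 and ins-37 lie downstream beyond it.

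Some strong IDR peaks lay next to insulin-like genes without being in their windows. Past the 3′ end of ins-13, on chromosome II, there were 3 of them. The strongest, with its summit 938 bp past that end, had 75.4 in replicate 1, 107 in replicate 2 and 183 pooled. The second, 737 bp past it, had 56.7, 80.7 and 134 in the same order, and the weakest, 182 bp past it, had 21.4, 20.5 and 43.6. The first pair overlaps sls-2.2 and C17C3.23, and the weakest overlaps sls-2.3 and C17C3.22. C17C3.23 and C17C3.22 are annotated as noncoding RNA genes. sls-2.2 and sls-2.3 are small nuclear RNA genes of the SL2 type, which supply the spliced leader added to downstream genes of operons. The peaks cannot be assigned to 1 of these overlapping genes. The summit of the weakest was 534 bp downstream of the ins-13 5′ end, just outside the window.

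The strongest peak near ins-17 was 1263 bp past its 3′ end and belonged to the promoters of rps-1, a ribosomal protein gene, and ifet-1, a translational repressor gene (99.6 in replicate 1, 115 in replicate 2 and 215 pooled). ins-17 itself had only a replicate 2 region of 4.47, the 97.0% point of that list counted from the strongest. Past the 3′ end of ins-37, at 546 bp, a peak in the promoter window of F08G2.5 had 23.6 in replicate 1, 51.4 in replicate 2 and 73.5 pooled. ins-37 had no region in its own window. For ins-8 and ins-7 the nearest IDR peak was intergenic, 2898 and 4568 bp from the 5′ ends (19.8 in replicate 1, 16.004 in replicate 2 and 39.8 pooled), and nhr-34, a nuclear receptor gene, had the nearest coding 5′ end.

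Counting any IDR summit within 10 kb of a 5′ end, a distance chosen after the values were seen, 7 members qualified (17.9%), against 39.5% of all coding genes. They were ins-7, ins-8, ins-13, ins-17, ins-35, ins-37 and ins-39. The median distance from a member's 5′ end to the nearest IDR summit was 30.5 kb, against 14.8 kb for all coding genes. Members that are neighbours share the same nearest peak, so these distances are not independent.

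Most of the family lies in chromosome clusters, defined by distance alone and regardless of strand. Members of 1 chromosome whose neighbouring 5′ ends were at most 20 kb apart formed 7 clusters with 25 of the 39 genes. Pooled regions marked 7 of the 25 clustered members (28%) and 4 of the 14 others (28.6%), against 39.2% of all coding genes. IDR peaks marked 0 of the 25 and 2 of the 14, against 9.5% of all coding genes, a background at which few of 25 genes would carry one. Both genes with an IDR peak, ins-39 on X and ins-35 on V, stand alone.

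The largest cluster, at 14012369 to 14037777 of chromosome I, holds ins-24 to ins-30. Only ins-27 and ins-29 had a pooled region, at 9.31 and 9.11, at the 88.6% and 92.0% points of the pooled list counted from the strongest. Replicate 1 listed no summit in the window of any of the 7 genes, and replicate 2 listed those of ins-25, ins-27 and ins-29. The nearest IDR summit was 256782 to 281235 bp from the 5′ ends of these genes. At least the smallest of these distances was found for 49 of all 19973 coding genes (0.245%), which include these 7 by the choice of that distance. The 7 genes are neighbours in 1 interval without an IDR summit, so they do not count as separate observations. The cluster lies between IDR summits at 13756542 and 14469339, an interval of 713 kb that was the longest of the 2732 intervals between neighbouring IDR summits, whose median was 18.1 kb. Weaker regions were present there: 87 pooled regions lay in the interval, the strongest at 29.8, along with 125 regions of replicate 1 and 111 of replicate 2.

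A second cluster, at 5988524 to 6011321 of chromosome II, holds ins-2, ins-3, ins-4, ins-5, ins-6 and ins-20. None had a pooled region in its window, and no pooled summit lay between the ends of the cluster. Replicate 1 listed weak regions at ins-3, ins-5, ins-6 and ins-20, at 3.84 to 4.14, and replicate 2 listed none in these windows. On chromosome III, at 10023752 to 10028697, ins-21, ins-22 and ins-23 were alike, with no pooled summit in 4.95 kb and replicate summits that did not coincide.

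The cluster of ins-13, ins-12 and ins-11, at 5544512 to 5557173 of chromosome II, had the most pooled summits of the 7. All 3 of its genes had a pooled region and a region in each replicate list, and 7 pooled summits lay inside it, up to 17.3. The strongest ins-13 region lay in a coding exon of acdh-2, an acyl-CoA dehydrogenase gene. This cluster also borders the IDR peaks past the 3′ end of ins-13 described above. Among the clusters of 2 genes, ins-7 and ins-8 on chromosome IV had the ins-7 region described above and none at ins-8. ins-14 and ins-15 on chromosome II had 1 pooled summit inside, at ins-15, and ins-19 and ins-31 on the same chromosome had none.

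**Figure D3:**
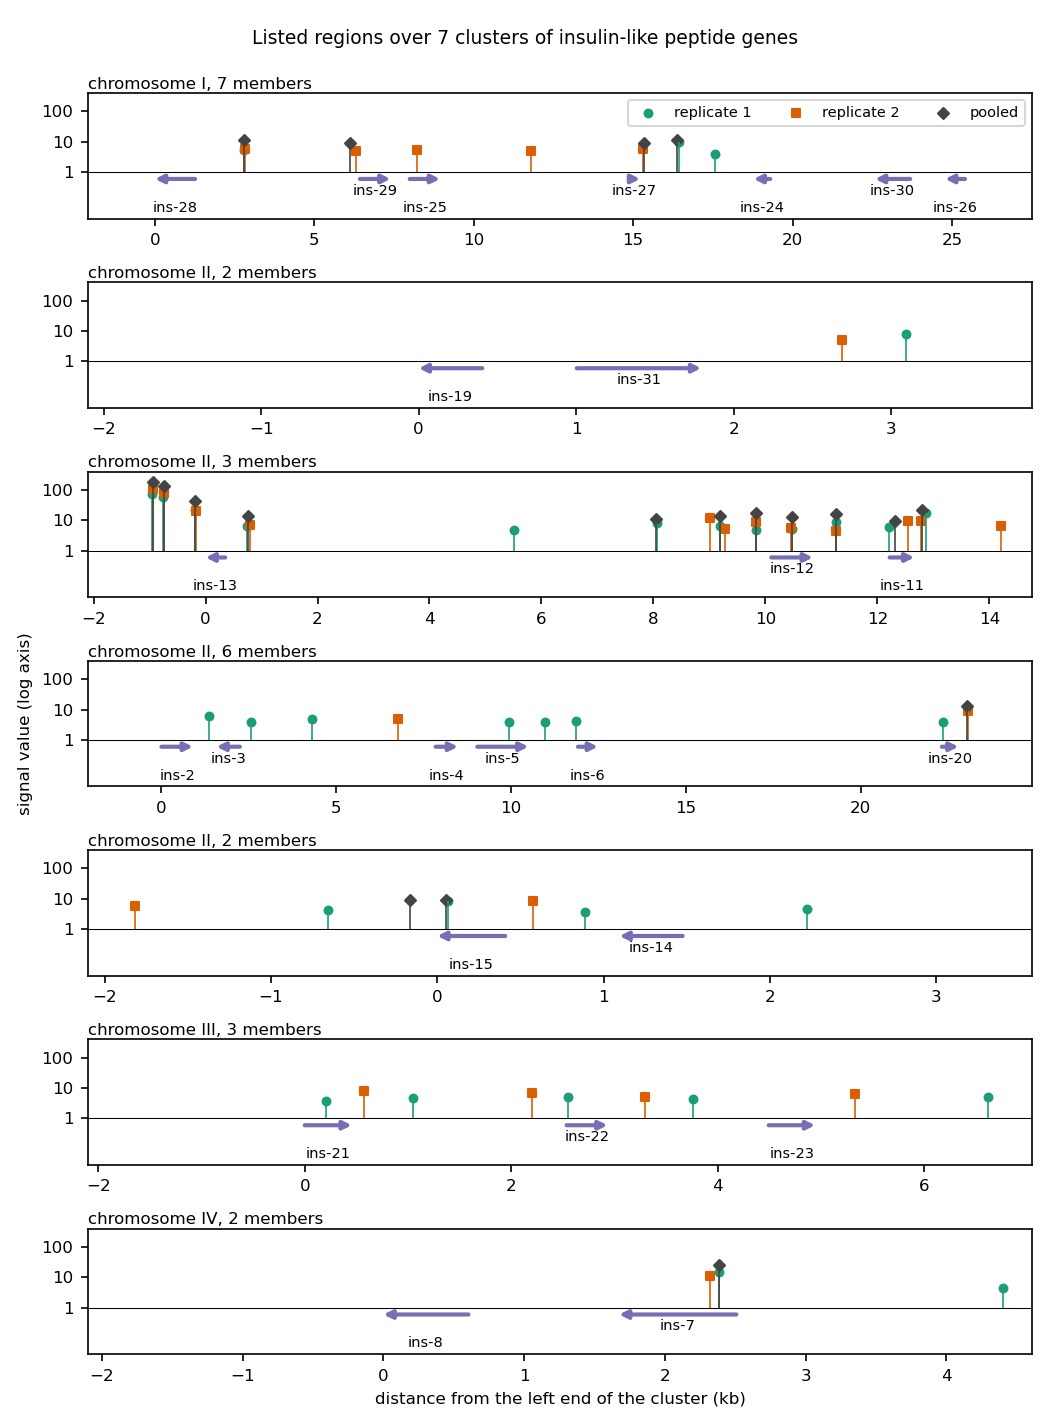
Members (arrows pointing in the direction of transcription) and listed region summits (stems, signal value on a log axis) in the 7 clusters, by distance in kb from the left end of each cluster, for replicate 1 (circles), replicate 2 (squares) and the pooled list (diamonds). The 3 tallest pooled stems, at 183, 134 and 43.6, stand outside the ins-13 end of the cluster of ins-13, ins-12 and ins-11, and the cluster of 6 genes on chromosome II has no pooled summit between its ends.

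Motif content of the promoter windows was close to that of other genes for most of the 6 motifs. The GATA motif was in 31 of 39 member windows (79.5%), against 78.8% of all coding windows of 1501 bp, and the AP-1 motif in 4 (10.3%), against 13.8%. E-box matches were in 7 (17.9%), against 22.5%, and GAGA matches in 3 (7.69%), against 9.68%. The CRE was in 8 windows (20.5%), against 7.29% of all coding windows, and the FOXO motif in 11 (28.2%), against 17.5%. The differences were not tested, and windows of clustered neighbours overlap.

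The windows with a CRE were those of ins-11, ins-14, ins-18, ins-26, ins-27, ins-28, ins-32 and ins-37, and neither gene with an IDR peak was among them. Within 50 bp of the summits of the 11 member regions there was no AP-1, CRE, E-box or GAGA match. The GATA match at ins-11 and the FOXO match at ins-35 were the only ones. AP-1 matches lay within 50 bp of 3.4% of all IDR peaks and 1.75% of pooled regions, so their absence from 11 regions sets little limit.

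Other peptide genes and the genes that act with the insulin-like peptides were counted in the same way. No IDR peak lay in the windows of the 31 flp genes, which encode FMRFamide-like peptides, or of the 71 nlp genes, which encode other neuropeptides, and pooled regions were listed for 5 flp genes (16.1%) and 16 nlp genes (22.5%). Over all coding genes the shares were 9.5% for IDR peaks and 39.2% for pooled regions. The strongest flp and nlp regions had pooled values of 12.2 and 28.8, both below ins-35 and ins-39. Of 9 genes for peptide processing and release, 8 had a pooled region but none an IDR peak, the highest being ida-1, a dense core vesicle gene, at 23.8. These lists were chosen with earlier results known, and differences between them were not tested.

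Downstream of the peptides, 4 of 13 genes from the receptor to DAF-16 had an IDR peak (30.8%), against 9.5% of all coding genes, and 10 a pooled region (76.9%), against 39.2%. The IDR peaks were those of ftt-2 (35.4 in replicate 1, 50.9 in replicate 2 and 79.7 pooled) and par-5 (17.5, 39.8 and 58.1), the 14-3-3 genes, akt-2, a kinase gene (34.5, 33.9 and 72.96), and daf-16 (23.6, 18.97 and 40.6). The receptor gene daf-2 had 6.35 in replicate 1, 14.008 in replicate 2 and 17.1 pooled, below the IDR peaks. All of these values are lower than those of ins-39.

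**Figure D4:**
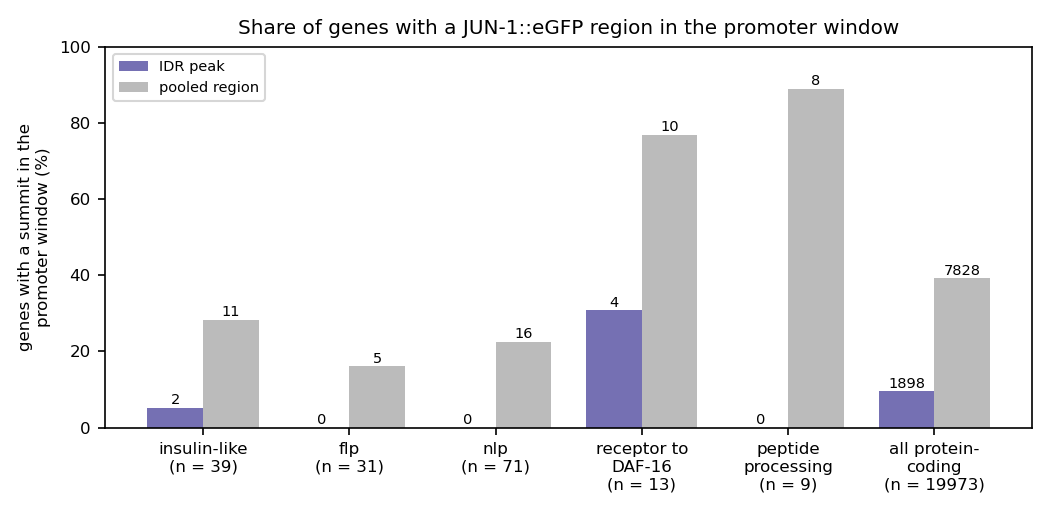
Share of genes (%) with an IDR peak or a pooled region in the promoter window, for the insulin-like genes, the other lists and all protein-coding genes, with the number of genes above each bar. IDR peaks marked 2 of 39 insulin-like genes (5.13%), against 9.5% of all coding genes, and 4 of 13 genes from the receptor to DAF-16.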

How the data were processed

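ChIP-seq regions of eGFP-tagged JUN-1 were taken from 4 narrowPeak lists on ce11. The deposited file notes give the sources: reads of 1 replicate and a control for each replicate list, both replicates and a control for the pooled list, and those 3 lists for the IDR list. Column 7, the signal score, and column 9, a −log10 q-value, are as deposited by the authors. The peak caller, the aligner and read depth: not given in the sources used here. The ce10 lists were not used here.

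Regions lay within the WBcel235 chromosomes. A summit was the start plus the offset in column 10. Genes and 5′ ends came from coding transcripts in Ensembl release 115, and bases from the RefSeq genome of the same build. Shares given for all coding genes were computed over all 19973 of them, and some member counts have no such share, as stated where they appear. No test was run, since there is 1 group. Assignment was tested on simulated summits. The members and gene lists were chosen with earlier results of these data known. By rule, every member was named, with genes that share its strongest region and some that neighbour it. Python 3.11.15, numpy 2.4.6, pandas 2.3.3 and matplotlib 3.10.9 were used.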

Additional observations from a re-analysis of the deposited data

How the results depend on the processing

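The counts of marked insulin-like genes moved with the window, and so did the shares of all coding genes. With a window of 500 bp upstream to 250 bp downstream, 0 members had an IDR peak (all coding genes 7.29%), 6 a pooled region (30.2%) and 5 a region in both replicate lists (22.4%). With 2000 bp upstream to 1000 bp downstream, 3 members had an IDR peak, ins-13 being added (12.8% of all coding genes), 18 a pooled region (50.5%) and 19 a region in both replicate lists (45.9%). In this wider window the share of the 39 members in both replicate lists lay slightly above that of all coding genes, not below it as in the main window. The stronger 50% of each list left 1 member with an IDR peak, ins-39 (4.95% of all coding genes), and 6 with a pooled region (26.2%). IDR needs both replicates, so leaving one out meant taking the 2738 strongest regions of the other in place of the IDR peaks, and its whole list in place of the pooled list. The first gave 2 members in both cases, ins-35 and ins-39 without replicate 1 (9.43% of all coding genes) and ins-7 and ins-39 without replicate 2 (8.85%). The second gave 13 members without replicate 1 (45.8% of all coding genes) and 18 without replicate 2 (45.5%). Any 5′ end within 10 kb of an IDR summit, a setting added after seeing the data, gave 7 (39.5% of all coding genes). Counting any overlap of region and window, the outermost or nearest 5′ end only, or (added after seeing the data) the 5′ ends of all transcripts of coding genes gave 2 to 3 members with an IDR peak and 10 to 12 with a pooled region. Over all coding genes the shares at these settings were 7.43% to 10.2% for IDR peaks and 33.7% to 42.4% for pooled regions. Requiring replicate summits within 200 or 100 bp of the pooled one left 6 members, a count that was not made over all coding genes. Clusters held 24 members with gaps of at most 10 kb and 25 with at most 50 kb. No paired analysis was possible because there is 1 group. The unknown depth limits what the absence of a region shows.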
